A study of Gallus gallus with 6 samples.

Results

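Chromosome Z, the sex chromosome that male birds carry as a pair, was followed gene by gene in RNA sequencing of chicken lens explants treated with GSK-J4 or with its vehicle. The members were all protein-coding genes that the deposited table places on Z and that had at least 10 counts in 3 or more of the 6 libraries, with PSAT1, FST, KLF9 and PCGF3 left out by name. Of 816 protein-coding Z genes, 532 passed the count filter, 4 of these were left out and 528 were kept, while 284 did not reach the filter. The whole table holds 24356 genes. At the edge of the filter, DMRT2 and MOB3B came in with a third-highest count of 10, and VCAN and TMC1 stayed out with 9. Because the filter needs only 3 libraries, a gene seen in a single group could pass.

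Lenses were operated on as in cataract surgery and then cultured as explants in medium with fetal bovine serum. Of the 6 libraries, 3 came from cultures given the vehicle DMSO and 3 from cultures given GSK-J4, which enters cells and blocks the demethylases KDM6A and KDM6B of histone H3 lysine 27. Both were added daily from day 1 to day 3 after the injury. The labels used here give no age, sex or strain of the birds, nor how many lenses went into a library. They also do not say whether replicates were separate animals, so the p-values reflect the spread between these libraries alone, part of which may be technical. The W signal differed between libraries of the same group, as given below.

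Male birds are ZZ and females ZW, and the small W is passed on by females alone. Birds are known for incomplete dosage compensation: no Z is silenced as a whole, and many Z genes are expressed at a higher level in males than in females, gene by gene and to differing degrees. A stretch of chicken Z near DMRT1, a gene of testis determination, is known as an exception, with a locus that is methylated and silent in males and transcribed in females. Some Z genes keep a close relative on W, called a gametolog, so that females hold 1 copy on each chromosome.

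Lens identity was clear in all libraries. The 13 measured lens markers, the crystallins among them, summed to 169034 to 198643 CPM (read counts scaled to a common library size) in DMSO and to 193715 to 234816 CPM in GSK-J4, and none was at 0. Markers of 6 other cell types stayed low. The highest sums were 13.1 CPM for pigment cells (TYR at 0), 4.38 CPM for retina (OTX2 at 0) and 16.9 CPM for blood (HBBA and HBBR at 0). They were 11.9 CPM for immune cells, 17.7 CPM for endothelium (CDH5 at 0) and 21.6 CPM for corneal stroma. In bulk samples of this kind, fewer cells of a type and less RNA per cell cannot be told apart.

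The libraries of a group differed in W. The 124 W genes, 66 of them with any count, summed to 405, 928 and 978 CPM of the library total in DMSO replicates 1, 2 and 3. In GSK-J4 replicates 1, 2 and 3 the sums were 354, 725 and 14.7 CPM, the last from 218 counts in all. GSK-J4 replicate 3 therefore stood apart, with a W signal far under that of the other 5 libraries, and DMSO replicate 1 and GSK-J4 replicate 1 lay between. The summed W level overlapped between the treatments but its lowest value, like its second lowest, was in the GSK-J4 group. Results on treatment are given with and without GSK-J4 replicate 3 for that reason.

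Z genes were expressed below autosomal genes in every library, and the gap was smaller in the 3 GSK-J4 libraries. The level of a gene was taken as its CPM (by library total, without TMM scaling) per kb of gene length, and the median over the 528 Z members was divided by the median over 11287 autosomal protein-coding genes past the same filter. This Z-to-autosome ratio was 0.628, 0.664 and 0.650 in DMSO replicates 1, 2 and 3, and 0.735, 0.716 and 0.859 in GSK-J4 replicates 1, 2 and 3. The groups did not overlap, and GSK-J4 replicate 3 was the highest library. The mean ratio was 0.647 ± 0.0180 (SD, n = 3) in DMSO and 0.770 ± 0.0779 (SD, n = 3) in GSK-J4, a difference of 0.25 on the log2 scale or 1.19-fold, with an exact permutation p of 0.10, two-sided, which is the smallest that 3 against 3 libraries can give. Without GSK-J4 replicate 3 the difference was 0.16 on the log2 scale. Chromosomes differ in this ratio, here taken for 28 autosomes with at least 100 genes, each set against the other autosomes. Their lowest values over the libraries ran from 0.681 to 1.42, so Z was the lowest of the chromosomes compared in its lowest library. By the highest value over the libraries, 26 of the 28 lay above the 0.859 of Z. Chromosomes 7 (0.681 to 0.759) and 1 (0.735 to 0.800) lay within the range of Z, so a low ratio was not particular to Z.

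A second measure took each gene relative to its own mean over the 6 libraries, so that the levels of single genes near the median no longer set the ratio. The median of these log2 values for Z minus that for autosomes was -0.10, -0.04 and -0.11 in DMSO replicates 1, 2 and 3, and 0.01, -0.04 and 0.23 in GSK-J4 replicates 1, 2 and 3. By this measure the groups overlapped, since GSK-J4 replicate 2 lay slightly below DMSO replicate 2. The difference between the group means was 0.15, with an exact permutation p of 0.20.

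The ratio was then set against the summed W counts. Over the 6 libraries Pearson's r was -0.71 (exact permutation p = 0.0917) and Spearman's rho was -0.66 (exact permutation p = 0.175), or 0.168 and 0.199 after Benjamini-Hochberg adjustment over the 19 relations of Z to W computed, alternatives included. Without the 2 libraries farthest from the median W sum, GSK-J4 replicate 3 and DMSO replicate 3, r was -0.09, and without GSK-J4 replicate 3 alone it was -0.27, so the relation rested on that library. DMSO replicate 1 ran against it, with the lowest ratio in spite of the third-lowest W sum. Within GSK-J4 the order of the ratios was the reverse of the order of W, and within DMSO it was not.

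The libraries also differed by chromosome size, which bears on what Z is compared with. The gene-centred log2 level of chromosomes 1 to 4 (4279 genes) minus that of chromosomes numbered above 10 (4414 genes) was -0.13, 0.09 and 0.01 in DMSO replicates 1, 2 and 3, and -0.08, 0.04 and 0.08 in GSK-J4 replicates 1, 2 and 3. Replicate 1 thus had the lowest difference of each group, and Z is itself a large chromosome. In both replicates 1, chromosomes numbered above 10 stood highest of the group, at 0.13 in DMSO and 0.05 in GSK-J4. Chromosomes 1 to 4 were lowest of the group in DMSO replicate 1, at 0.002. In GSK-J4 replicate 1 they were not, at -0.03. Set against chromosomes 1 to 4 alone, a comparison chosen after seeing the data, Z stood at -0.03, -0.08 and -0.12 in DMSO replicates 1, 2 and 3, and at 0.05, -0.06 and 0.19 in GSK-J4 replicates 1, 2 and 3. These values fell in the exact reverse order of the W sums, within each group and over both. Pearson's r was -0.94 (exact permutation p = 0.0014) and rho was -1 (exact permutation p = 0.0028), each 0.0264 after adjustment over the 19 relations. The adjustment does not correct for having chosen these chromosomes after seeing the data. Without GSK-J4 replicate 3, r was -0.90, and without the 2 farthest libraries it was -0.84. On this scale GSK-J4 exceeded DMSO by 0.14 with an exact permutation p of 0.20, and the groups overlapped.

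**Figure D1:**
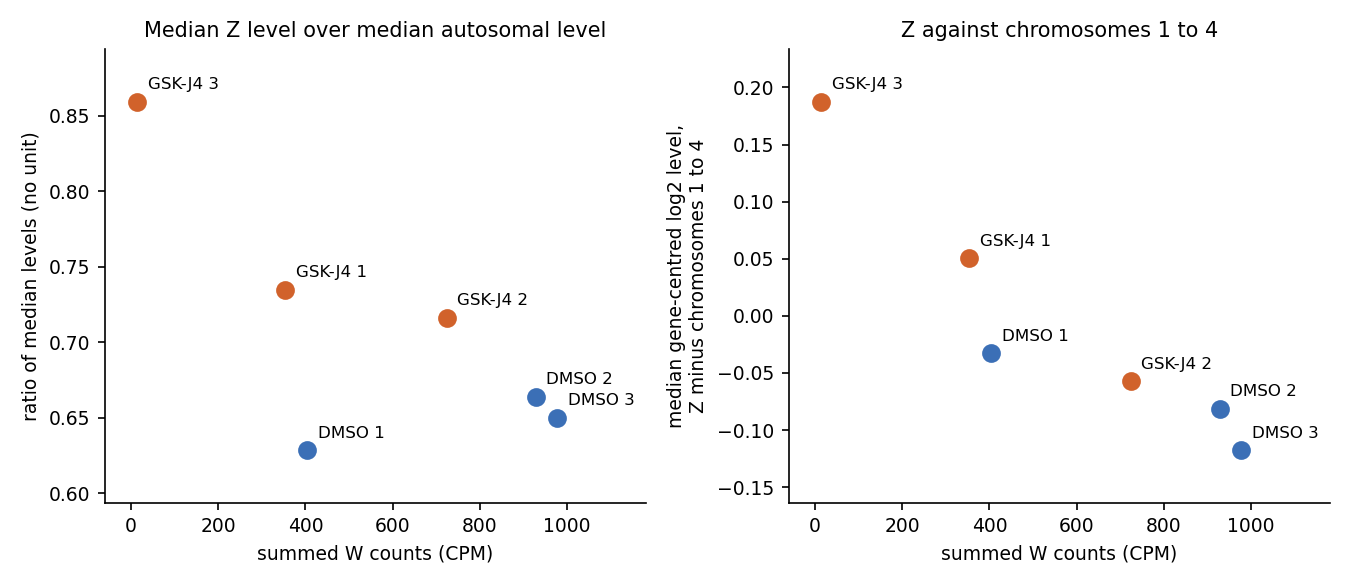
Each point is a library (DMSO blue, GSK-J4 orange), placed by its summed W counts in CPM on the x axis. The left panel shows the ratio of the median Z level to the median autosomal level, where DMSO replicate 1 lies low at 0.628, and the right panel shows the gene-centred log2 level of Z minus chromosomes 1 to 4, which falls from 0.19 to -0.12 as W rises.

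Comparing each library with the other 2 of its own group removes the treatment. Measured as log2 CPM minus the mean of its group mates, the median Z member less the median autosomal gene was -0.03, 0.06 and -0.03 in DMSO replicates 1, 2 and 3. It was -0.10 and -0.14 in GSK-J4 replicates 1 and 2 and 0.24, or 1.18-fold, in GSK-J4 replicate 3. In that library 427 of the 528 members (80.9%) lay above the autosomal median, and the middle 50% of the members ran from 0.07 to 0.41 against -0.15 to 0.18 for autosomal genes. It was the highest library of its group for 352 members (66.7%), against 34.3% of autosomal genes. None of the 28 autosomes matched this: their medians in GSK-J4 replicate 3 ran from -0.12 to 0.07.

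**Figure D2:**
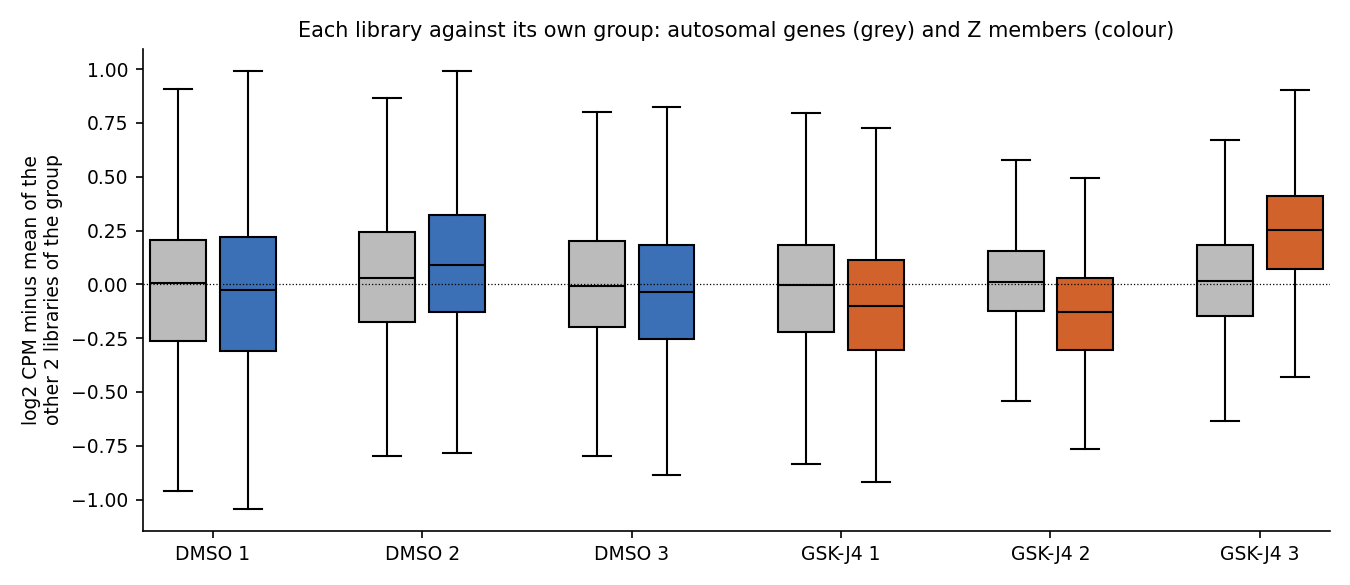
Boxes show log2 CPM of a library minus the mean of the other 2 libraries of its group, for autosomal genes in grey and for the 528 Z members in colour (line, median; box, quartiles; whiskers, 1.5 times the box height at most). The Z box of GSK-J4 replicate 3 sits above 0 with a median of 0.25, while its autosomal box is centred on 0.01.

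The Z copies of genes with a W relative could be followed together with their W copies, in 17 pairs. The W share was taken as the level of the W copy, here in TMM-scaled CPM per kb, over the summed level of both copies. Its median over the pairs was 5.09%, 15.8% and 13.5% in DMSO replicates 1, 2 and 3. In GSK-J4 replicates 1, 2 and 3 it was 5.20%, 15.7% and 0.193%. The share was lower in the 3 libraries with the lowest W sums than in the others. The counts of these W copies are also part of the W sum, so this order is not a separate result. It differed widely between pairs. For chPKCI, whose W relative Wpkci-7 is a multicopy gene, the W share was 55.3%, 74.1% and 77.7% in DMSO replicates 1, 2 and 3, and 50.9%, 67.2% and 2.58% in GSK-J4 replicates 1, 2 and 3. For RPL17, a protein of the large ribosomal subunit, the W share peaked at 9.36% in DMSO replicate 2.

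All 17 Z copies were higher in GSK-J4 replicate 3 than the mean of the other 2 GSK-J4 libraries, by a median of 0.28 on the log2 scale of CPM per kb. The Z copy of VCP, an ATPase that extracts proteins for degradation, stood at 113, 89.1 and 110 CPM per kb in GSK-J4 replicates 1, 2 and 3, and its W copy at 15.04, 40.3 and 0.575. The sum of both copies was thus lower in replicate 3, by 0.22 on the log2 scale. For UBE2R2, a ubiquitin-conjugating enzyme, the Z copy stood at 64.7, 66.5 and 87.0 and the W copy at 2.20, 6.73 and 0.0223 in the same libraries, so that the sum was higher in replicate 3 by 0.31. The Z copy of CHD1Z, a chromatin remodeller, stood at 6.54, 7.01 and 10.2, with its W copy at 1.05, 3.50 and 0.0675. Summed over both copies, the median pair was 0.10 higher in GSK-J4 replicate 3. Of the pairs, 13 were higher and 4 lower (chPKCI, SMAD2Z, VCP and CZH18ORF25), with chPKCI the lowest at -1.18. In the DMSO group, replicate 1, with the lowest W sum of the 3, had Z copies above its group mates by a median of 0.20, for 12 of the 17 pairs, and DMSO replicates 2 and 3 were at -0.04 and -0.11. Most of the pairs start between 0 and 10 Mb of Z. All 85 members of that stretch, paired or not, had a like median of 0.20 in DMSO replicate 1, also by TMM-scaled CPM. The excess was therefore not particular to the pairs.

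**Figure D3:**
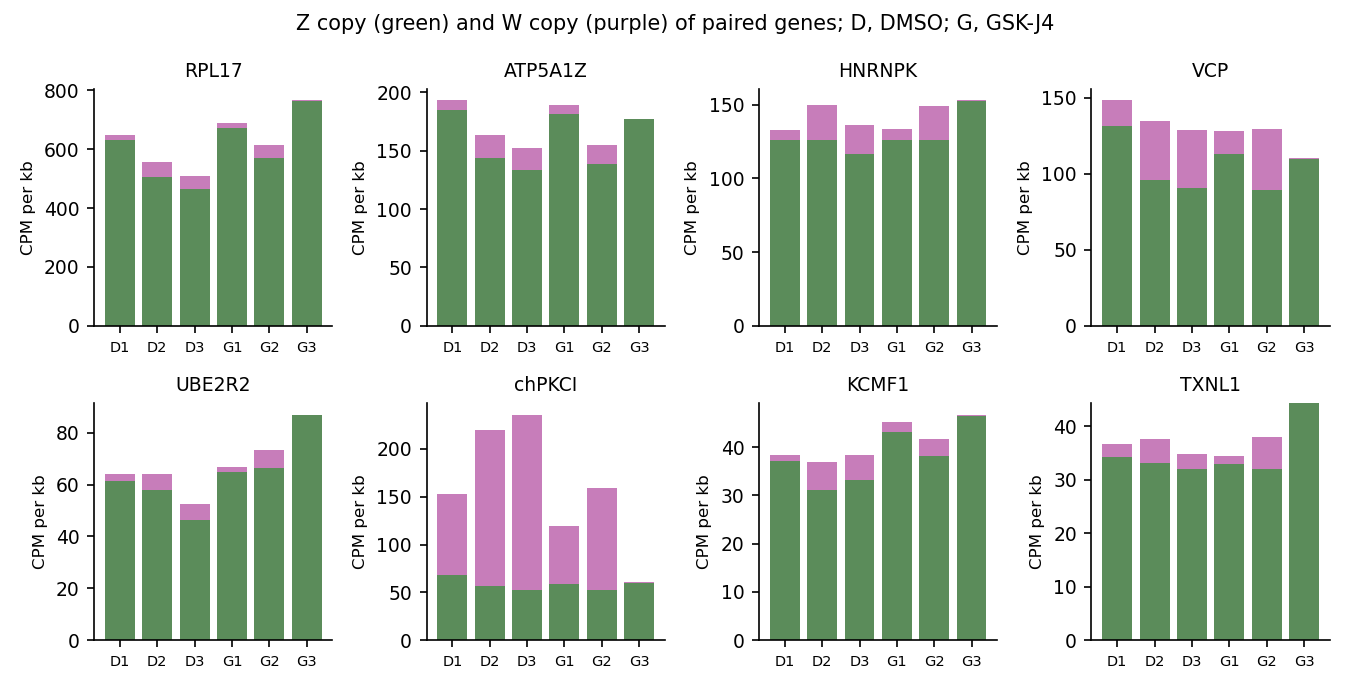
Stacked bars give the level in TMM-scaled CPM per kb of the Z copy (green) and the W copy (purple) for the 8 pairs with the highest Z level, in DMSO (D) and GSK-J4 (G) replicates 1 to 3. The W copy nearly vanishes in GSK-J4 replicate 3, and for chPKCI it exceeds the Z copy in the other 5 libraries.

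Per-member slopes on W were estimated at equal treatment, as the log2 difference between a library with the highest W sum and one with no W counts. The median slope of the 526 members tested was -0.17, against 0.01 for autosomal genes, and 354 members (67.3%) had a negative slope against 48.6% of autosomal genes. No member's slope passed adjustment in edgeR, where 0% of all 12583 genes were called. None did in DESeq2, where 12 of all 12583 genes were called, or in limma-voom, where 0 were. With so few genes called anywhere, the lack of called members says little about Z. At an unadjusted edgeR p below 0.05, 42 members (7.98%) had a negative slope, beside a background of 1.28%, and 7 (1.33%) had a positive one, beside 1.30%. Without GSK-J4 replicate 3 the median slope reversed to 0.02, so the negative sign of the median rested on that library.

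The negative slopes of smallest p were those of TPGS2, DCTN3, RPS6, ENSGALG00000029118 and RPL17. TPGS2, a subunit of the tubulin polyglutamylase complex, stood at 61.7, 42.2 and 41.8 CPM in DMSO replicates 1, 2 and 3 and at 72.8, 59.4 and 88.9 CPM in GSK-J4 replicates 1, 2 and 3. In each group the library with the least W was the highest, and the slope was -0.88 ± 0.20 (SE). DCTN3, a dynactin subunit, followed the same order, with 102, 74.4 and 66.2 CPM in DMSO and 90.0, 73.1 and 105 CPM in GSK-J4, and a slope of -0.82 ± 0.20 (SE). RPS6, a protein of the small ribosomal subunit, had a slope of -0.75 ± 0.20 (SE) and RPL17 one of -0.63 ± 0.19 (SE).

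The positive slopes of smallest p belonged to low genes. CDO1, which oxidises cysteine, had 0.967, 1.99 and 2.53 CPM in DMSO and 0.813, 1.91 and 0 CPM in GSK-J4. EMB, a membrane glycoprotein of the immunoglobulin superfamily, had 2.22, 6.48 and 9.15 CPM in DMSO and 1.19, 1.68 and 0.717 CPM in GSK-J4, with a slope of 2.52 ± 0.62 (SE). SLC45A2, a transporter of pigment cells, had 4.10, 6.89 and 10.6 CPM in DMSO and 2.13, 7.75 and 2.87 CPM in GSK-J4. The summed pigment markers, SLC45A2 included, were at 6.43, 9.87 and 13.1 CPM in DMSO and 4.50, 10.1 and 5.81 CPM in GSK-J4. SLC45A2 made up a large part of these sums, so their moving with it says nothing of the other pigment markers. The part of pigment cells in the result was not tested. PGM5 and CAMK4 stayed below 4 CPM in all libraries.

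Position along Z was described in windows of 10 Mb by gene start, since the members run from the first kilobase to 82.2 Mb of the deposited coordinates. The excess of GSK-J4 replicate 3 over its group mates was positive in all 9 windows, from 0.13 between 0 and 10 Mb (85 members) to 0.33 beyond 80 Mb (17 members). The other libraries were less even. DMSO replicate 1 was higher than its group mates at both ends, by 0.20 between 0 and 10 Mb and 0.25 beyond 80 Mb, and lower between 20 and 30 Mb, at -0.21. GSK-J4 replicate 1 had a like profile at the first end, with 0.13 between 0 and 10 Mb and -0.22 between 20 and 30 Mb. The end windows also held the most negative median slopes on W, -0.34 and -0.40, against -0.06 to -0.21 in the 7 windows between them, and the window beyond 80 Mb had the highest median FPKM, 12.6. The median log2 fold change with GSK-J4 was positive in every 10 Mb window, from 0.08 between 30 and 40 Mb to 0.21 beyond 80 Mb. In windows of 5 Mb it was below 0 in 2 places, at -0.04 between 65 and 70 Mb (26 members tested) and -0.06 between 75 and 80 Mb (10 members).

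**Figure D4:**
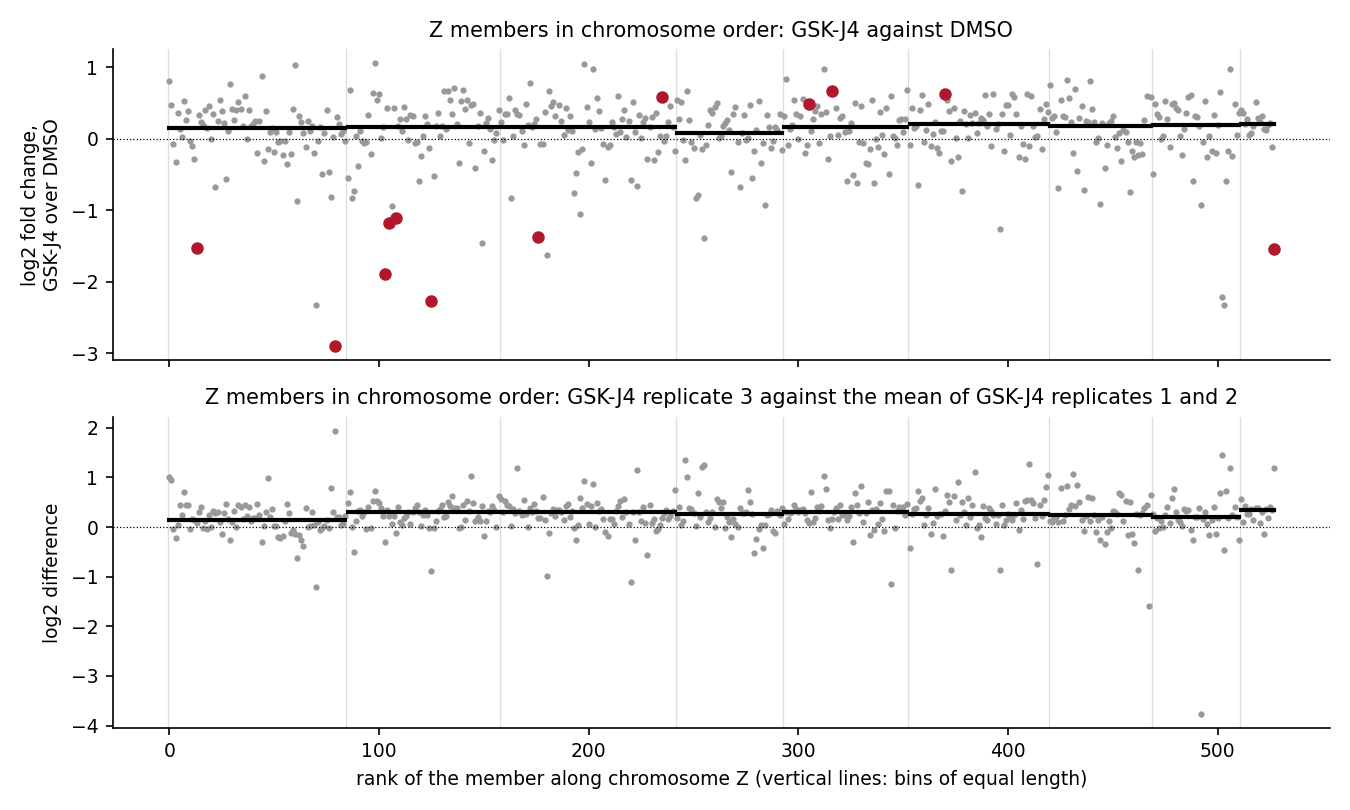
Points are Z members in order of gene start, with black bars at the median of each 10 Mb window. The upper panel gives the log2 fold change of GSK-J4 over DMSO, with the 12 called members in red, and the lower panel gives the log2 difference of GSK-J4 replicate 3 from the mean of its group mates, whose window medians lie between 0.13 and 0.33.

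The neighbourhood of DMRT1 held 52 members within 3 Mb. Their median log2 fold change was 0.13 and their median slope on W was -0.06, against 0.17 and -0.19 for the other members. They were higher in GSK-J4 replicate 3 than its group mates by 0.20, close to the 0.24 of the other members. DMRT1 itself had 3, 19 and 7 counts in DMSO and 0, 6 and 2 counts in GSK-J4 and was under the filter. The same neighbourhood contains a non-coding gene that followed W. The long non-coding RNA ENSGALG00000051419, on the minus strand of Z from 27317307 to 27383989 in the deposited coordinates, 1.37 Mb from the start of DMRT1, had 3.87, 8.53 and 7.22 CPM in DMSO and 2.38, 7.94 and 0.143 CPM in GSK-J4, with 2 counts in replicate 3. Over the 6 libraries its Pearson correlation with the W sum was 0.95, the highest of 31 non-coding Z genes past the count filter, and it was singled out after its values were seen. Its slope on W was 3.69 with an edgeR adjusted p of 1.00, and no sources used here give it a name.

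The question for treatment was which Z genes differ between GSK-J4 and DMSO. As a list, the 526 members tested had a median log2 fold change of 0.17 (middle 50% from -0.08 to 0.36), against 0.01 for autosomal genes (from -0.19 to 0.19), and 353 (67.1%) lay above 0 against 51.7% of autosomal genes. No autosome had as high a median: the 28 ran from -0.08 to 0.07. Without GSK-J4 replicate 3 the median of the members was 0.08, with 320 of 528 (60.6%) above 0, and with the W sum in the model it was 0.09, with 322 of 526 (61.2%) above 0. The median thus kept its sign and was smaller in both.

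Called changes were few, and the balance of rises and falls depended on the processing. By edgeR, 12 members passed (2.28%), beside a background of 5.04% of all genes tested. The 4 Z genes left out by name were not removed from the background, so the member shares are not those of all Z genes. Of these, 4 rose (0.760%, background 1.05%) and 8 fell (1.52%, background 3.99%). More rose than fell with DESeq2 (30 against 21) and with the replicate number as a block (28 against 20). The same held without a filter on low counts (25 against 13). Leaving out DMSO replicate 2 (19 against 10) or GSK-J4 replicate 1 (5 against 4) did likewise. Calls over all genes under these settings were 1048 of 12583, 1129 of 12583, 882 of 17951, 861 of 12789 and 529 of 12897, in that order. Their split into rises and falls over all genes is not given here. Members whose groups did not overlap were 131 in all (24.9%, background 24.3%): 91 (17.3%) were higher, against a background of 10.8%, and 40 (7.60%) lower, against 13.5%. At an unadjusted p below 0.05, 97 were higher (18.4%, background 8.10%) and 43 lower (8.17%, background 11.0%). In either direction these were 140 of 526 members. Without GSK-J4 replicate 3 they were 75 of 528, and with the W sum in the model 47 of 526. The split by direction and the background were not computed for these 2 settings, which also called fewer of all genes after adjustment (278 and 207, against 634). The 8 called falls were each larger in size than the 4 called rises.

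EGFLAM, which encodes pikachurin, a matrix protein that binds dystroglycan, fell most firmly. It lies at 11920848 to 11993157 on the plus strand and had 11.2, 7.42 and 11.3 CPM in DMSO replicates 1, 2 and 3 against 2.94, 2.76 and 2.30 CPM in GSK-J4 replicates 1, 2 and 3. The GSK-J4 libraries were tightly grouped and all under the lowest DMSO library. The log2 fold change was -1.89 ± 0.25 (SE) with an edgeR adjusted p of 0.0013. LIPG, the endothelial lipase that cleaves lipoprotein phospholipids, lies at 1061896 to 1069535 on the minus strand. It had 103, 66.6 and 121 CPM in DMSO and 41.4, 25.6 and 34.3 CPM in GSK-J4, a log2 fold change of -1.52 ± 0.23 (SE) with an edgeR adjusted p of 0.0029. Both remained called when any single library was left out, and they were the 2 members called with the W sum in the model, where the background was 1.65%.

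A pair of genes of dividing cells fell. CENPH, a protein of the inner kinetochore, had 8.42, 11.9 and 15.1 CPM in DMSO and 4.19, 4.53 and 4.95 CPM in GSK-J4, with a log2 fold change of -1.37 ± 0.24 (SE) and an edgeR adjusted p of 0.0078, which was 0.0525 without GSK-J4 replicate 2. MELK, a kinase of proliferating cells and the last member along Z, had 8.37, 8.99 and 15.2 CPM in DMSO and 2.94, 2.29 and 6.10 CPM in GSK-J4. Its log2 fold change was -1.55 ± 0.37 (SE) with an edgeR adjusted p of 0.0355, and its call was lost when any of 3 libraries was left out. The groups of both genes were separate, with DMSO replicate 3 the highest of all.

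DAB2, a clathrin adaptor, had 7.11, 7.94 and 5.78 CPM in DMSO and 4.13, 2.57 and 3.01 CPM in GSK-J4, and its log2 fold change was -1.11 ± 0.26 (SE) with an edgeR adjusted p of 0.0343. It lies at 12347586 to 12371157, within 1 Mb of EGFLAM and of ENSGALG00000048563. EMB fell by 2.27 ± 0.50 (SE) on the log2 scale with an edgeR adjusted p of 0.0260, and its DMSO libraries spread widely. CCBE1, a secreted protein of lymphatic growth, and ENSGALG00000048563 were also called, and are named after their values were seen, since their means were under 5 CPM. CCBE1 had 3.64, 3.04 and 4.21 CPM in DMSO and 0.626, 0 and 0.932 CPM in GSK-J4, with an edgeR adjusted p of 0.0386. ENSGALG00000048563 had a log2 fold change of -1.18 ± 0.30 (SE) with an edgeR adjusted p of 0.0470. Each of these 4 lost its call when any of 4 or more of the libraries was left out. With the W sum in the model the log2 fold changes were -1.20 for EMB and -1.21 for DAB2. They were -3.81 for CCBE1, against -2.90 without W in the model, and -1.18 for ENSGALG00000048563.

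The 4 members that rose did so by less than 1 on the log2 scale. CTSV, a lysosomal cysteine protease, had 369, 440 and 342 CPM in DMSO and 502, 551 and 559 CPM in GSK-J4, a log2 fold change of 0.49 ± 0.12 (SE) with an edgeR adjusted p of 0.0383. CDC14B, a phosphatase of the cell cycle, had 8.42, 8.93 and 9.51 CPM in DMSO and 13.8, 13.6 and 15.3 CPM in GSK-J4, a log2 fold change of 0.67 ± 0.16 (SE) with an edgeR adjusted p of 0.0383. PIGG, an enzyme of GPI-anchor synthesis, rose by 0.62 ± 0.15 (SE) with an edgeR adjusted p of 0.0387. RIC1, part of an exchange factor for a Golgi Rab protein, rose by 0.58 ± 0.13 (SE) with an edgeR adjusted p of 0.0275. The groups did not overlap for any of the 4, and GSK-J4 replicate 3 was the highest library for all of them. None of the 4 was called without GSK-J4 replicate 3 or with the W sum in the model. Their log2 fold changes without that library were 0.46 for CTSV, 0.62 for CDC14B, 0.51 for PIGG and 0.52 for RIC1, and with W in the model they were 0.50, 0.65, 0.47 and 0.50. When single libraries were left out in turn, CDC14B lost its call each time. CTSV kept its call only without DMSO replicate 2, and RIC1 only without DMSO replicate 1. PIGG kept its call only without DMSO replicate 1 or without DMSO replicate 2.

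**Figure D5:**
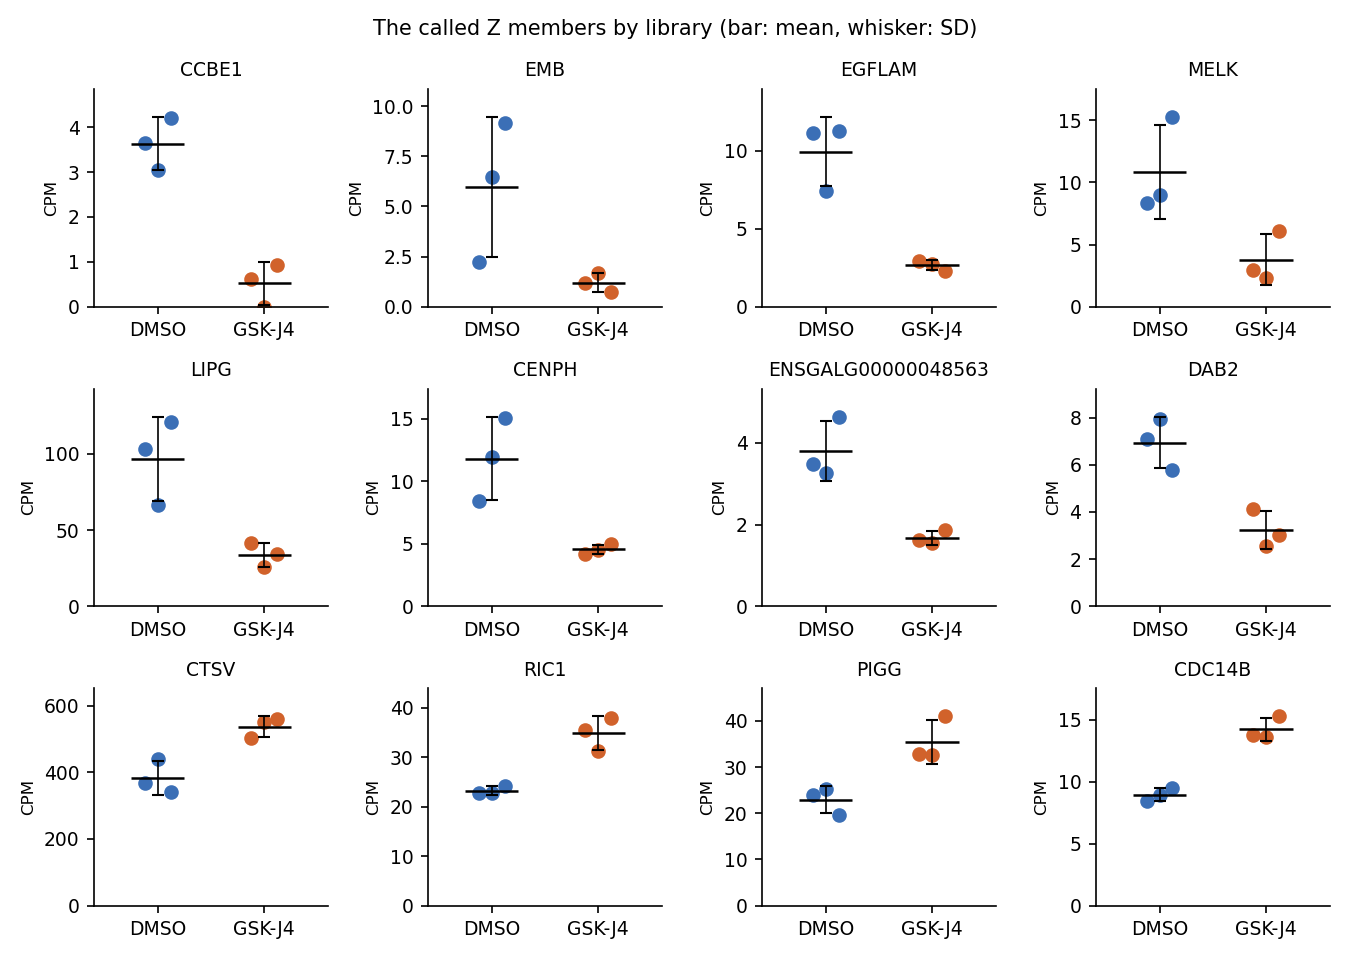
Each panel shows 1 called Z member, with a point per library in CPM, a bar at the group mean and whiskers of 1 SD (n = 3), on axes that start at 0. The 8 members that fell come first, in order of log2 fold change, and the 4 that rose fill the last row, where the groups are separate but closer together.

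Ribosome and translation genes had the largest positive median of the role lists with more than 1 member, 0.31 over 17 members tested, with 14 above 0, though 0 passed the edgeR test. They include the most highly expressed Z genes. Per length, RPS6 stood at 1541 ± 323 FPKM (SD, n = 3) in DMSO and 1989 ± 291 FPKM in GSK-J4, RPS23 at 1439 ± 252 and 1792 ± 208 FPKM, and RPL37 at 462 ± 34.9 and 504 ± 31.0 FPKM. The groups overlapped in CPM for all 3, with edgeR adjusted p-values of 0.269, 0.290 and 0.621. DHX29, a helicase of translation initiation, was nearer to the threshold, with 15.2, 23.5 and 16.6 CPM in DMSO and 25.5, 29.4 and 35.9 CPM in GSK-J4 (edgeR adjusted p = 0.0615). TARS, the threonyl-tRNA synthetase, had 86.5, 85.4 and 93.0 CPM in DMSO and 101, 132 and 190 CPM in GSK-J4 (edgeR adjusted p = 0.0721). YTHDC2 and TENT2 had log2 fold changes of 0.53 and 0.46 and did not pass.

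Growth factor receptors and signalling genes had a median of 0.26 over 25 members tested, with 0 called. ERBIN, a scaffold that binds the receptor ERBB2, had 76.5, 94.0 and 85.8 CPM in DMSO and 106, 118 and 134 CPM in GSK-J4 (edgeR adjusted p = 0.0537). SMAD2Z, which carries TGF-beta signals to the nucleus, had 46.0, 44.0 and 44.6 CPM in DMSO and 62.2, 54.3 and 68.9 CPM in GSK-J4 (edgeR adjusted p = 0.0570). IL6ST, the shared receptor subunit of the interleukin 6 family, had 29.1, 43.4 and 31.8 CPM in DMSO and 44.0, 55.6 and 67.2 CPM in GSK-J4 (edgeR adjusted p = 0.0663). In these 3 genes the groups were separate and GSK-J4 replicate 3 was the highest library. MCC lay the other way, with a log2 fold change of -0.61 and an edgeR adjusted p of 0.0792.

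Matrix, adhesion and contractile genes had the lowest median among lists with more than 1 member, -0.36 over 18 members tested, of which EGFLAM and DAB2 fell (background 3.99%), 0 rose (background 1.05%) and 16 did not pass. THBS4, a matricellular protein, had a log2 fold change of -1.62 at a mean of 3.34 CPM in DMSO and 1.05 CPM in GSK-J4. VCAN, a matrix proteoglycan under the filter, had 9, 58 and 30 counts in DMSO and 4, 3 and 6 counts in GSK-J4. Unlike the lists above, this median was about the same without GSK-J4 replicate 3, at -0.32, and the median slope on W was 0.07.

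Cell cycle and DNA repair genes had a median of -0.06 over 31 members tested, with CDC14B risen (background 1.05%), CENPH and MELK fallen (background 3.99%) and 28 not called. MSH3, a mismatch repair protein, had 12.5, 17.5 and 12.7 CPM in DMSO and 20.6, 20.5 and 27.8 CPM in GSK-J4 (edgeR adjusted p = 0.0633). The adjacent genes CDKN2A and CDKN2B, inhibitors of cell cycle entry that are mentioned here after their values were seen, had log2 fold changes of -2.21 and -2.32 with edgeR adjusted p-values of 0.0997 and 0.0857. CDKN2B had 4.32, 1.81 and 14.7 CPM in DMSO and 1.69, 1.35 and 1.08 CPM in GSK-J4, so the DMSO libraries spread widely.

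The sterol, lipid and retinoid list had a median of 0.02 over 14 members tested, with LIPG fallen (background 3.99%) and 13 not called. HMGCS1, of the cholesterol pathway, had 134, 173 and 216 CPM in DMSO and 92.0, 124 and 131 CPM in GSK-J4, with an edgeR adjusted p of 0.0960. The receptor VLDLR was level, with a log2 fold change of 0.01 ± 0.15 (SE). Transcription factor and chromatin genes had a median of 0.14 over 15 members tested and 0 called. CHD1Z had 34.0, 39.5 and 33.2 CPM in DMSO and 44.9, 48.1 and 70.0 CPM in GSK-J4 (edgeR adjusted p = 0.0723), SMARCA2, an ATPase of chromatin remodelling, had a log2 fold change of 0.33 and NFIB one of 0.52.

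Mitochondrial genes had a median of 0.09 over 19 members tested and 0 called, and stress and protein turnover genes one of 0.07 over 16 and 0 called. ACAA2, of fatty acid oxidation, had a log2 fold change of -0.29 and ATG10, of autophagy, one of 0.82, each without passing. The 21 Z partners of W genes had a median log2 fold change of 0.21, 0 called, and a median slope on W of -0.42, against -0.17 for all members. Many of these partners lie between 0 and 10 Mb, where the median slope over all members was -0.34. Without GSK-J4 replicate 3 the medians of the signalling and partner lists were 0.11 and 0.14, and that of the ribosome and translation list was 0.20.

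Among the highest Z genes were also 2 with a place in the lens or in wound repair. TDRD7, an RNA granule protein whose loss causes cataract in humans and mice, stood at 201 ± 20.2 FPKM (SD, n = 3) in DMSO and 272 ± 43.9 FPKM in GSK-J4. In CPM it had 658, 778 and 634 in DMSO and 752, 980 and 1054 in GSK-J4, so the groups overlapped (edgeR adjusted p = 0.117). NREP, a small protein linked to tissue repair, had 550, 873 and 494 CPM in DMSO and 664, 753 and 1168 CPM in GSK-J4, with an edgeR adjusted p of 0.394. TXN, or thioredoxin, was level at 301 ± 20.4 and 292 ± 31.7 FPKM. Over all members the median level was 6.49 FPKM, 20 members reached 100 FPKM or more, and 46 lay under 1 FPKM.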

How the data were processed

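RNA of 6 chicken lens explant samples was read in pairs of 150 bp on an Illumina instrument, per the labels' protocols. The deposited table gives whole-number counts per gene, not normalised, and the deposited FPKM table holds FPKM values that the authors made from them. On checking, each FPKM was the gene's count over its length, scaled by 1 factor for the whole library. The submitters' processing notes list DESeq2 1.20.0, HISAT2 2.0.5, StringTie 1.3.3b and also featureCounts 1.5.0-p3, with no roles. The genome build, annotation release and use of strand were not given in the sources used here. Coordinates are therefore those of the deposited table. Reads of overlapping genes and of near-identical copies, the Z and W copies of a gene among them, may have been split or dropped in a way that cannot be checked. Symbols came from the table for 447 members and from a RefSeq gene table (assembly GRCg7b, names only) for 42, and 39 kept their Ensembl identifiers.

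The analysis used edgeR 4.0.16 in R 4.3.3. Of 17951 genes with any count, 12583 passed filterByExpr. They were scaled by TMM and tested with the robust quasi-likelihood F test in a model of treatment alone, with Benjamini-Hochberg adjustment over all 12583 genes (threshold 0.05, no minimum fold). A positive log2 fold change means higher with GSK-J4. Its standard error is its size over the root of F. A second edgeR model held treatment and the summed W counts, scaled to the highest library. CPM of single genes are TMM-normalised. The W sums and the levels behind the ratios are scaled by library total. The levels of the Z and W copies are TMM-normalised CPM per kb. The biological coefficient of variation was 16.9%, and library totals ran from 14862268 to 22541756 counts. The fit was tested on simulated counts before use. Ratios of Z to autosomes were compared by exact two-sided permutation tests in Python 3.11.15.

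Genes named are called members whose groups did not overlap and averaged 5 CPM or more, up to 4 of smallest p in each role list, Z partners of W genes, slopes on W of smallest p, the 8 highest in FPKM and a few set genes. Exceptions are marked, and some genes that the rules take are not reported here. The members, lists and rules were chosen with earlier results of these data known. Alternatives covered scaling, filters, limma-voom (limma 3.58.1), DESeq2 1.42.0, the replicate number as a block, the measure of W and leaving out each library. Sample titles gave the groups and replicate numbers.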

Additional observations from a re-analysis of the deposited data

How the results depend on the processing

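The count of 12 called members stayed within 1.5 times under 8 of 17 alternatives. It was 38 without a filter on low counts (25 higher, 13 lower), 51 with DESeq2 (30 higher, 21 lower) and 2 with the W sum as a covariate. Calls over all genes moved too, from 634 of 12583 to 882 of 17951, 1048 of 12583 and 207 of 12583, in that order. The member count ran from 5 to 29 when 1 library was left out. Without DMSO replicate 1 it was 21, beside 747 of all 12748 genes tested. Without DMSO replicate 2 it was 29 (19 higher, 10 lower), beside 861 of 12789. It was 5 without DMSO replicate 3, beside 366 of 12820. Omitting GSK-J4 replicate 1 gave 9, beside 529 of 12897. Omitting GSK-J4 replicate 2 gave 5, beside 249 of 12838. With GSK-J4 replicate 3 omitted the count was again 5, beside 278 of 12883. The highest member counts thus came with the most calls over all genes, so this range is not particular to Z. With library totals the 16 calls were all lower, against 4 higher and 8 lower with TMM, since that scaling moved the autosomal median to -0.09. Over all genes 758 were called with library totals. Nothing in the labels says that the replicate numbers pair the libraries. Correlations of same-numbered deviations were 0.30, 0.17 and 0.04, the last too low for pairing to be taken as given. As a hint from the data, 5 of 6 libraries were closest to the one with their own number. The exception, GSK-J4 replicate 3, was closest to DMSO replicate 2 (0.11). The 2 libraries numbered 3 also had the highest and the lowest W sum, 978 CPM in DMSO and 14.7 CPM in GSK-J4. Whether the libraries are paired was not tested. With the number as a block 48 members were called, 28 higher and 20 lower, beside 1129 of all 12583 genes. The block left the ratio difference at 0.25, with an exact permutation p of 0.25, two-sided, which is the smallest that 3 pairs can give. The median log2 fold change of the members kept its sign throughout, from 0.07 to 0.22. The difference in Z-to-autosome ratio ran from 0.13 to 0.30 with exact permutation p-values from 0.10 to 0.25, the last being that of the block. The relation to W ran from r = -0.97 to r = -0.27 over leave-one-out settings. Before adjustment, its exact permutation p was below 0.05 without a filter (r = -0.80, p = 0.0458) and against chromosomes 1 to 10 (r = -0.85, p = 0.0278). The same held against chromosomes 1 to 4 (r = -0.94, added after seeing the data) and without DMSO replicate 1 (r = -0.97, p = 0.0083). After Benjamini-Hochberg adjustment over the 19 relations these p-values were 0.158, 0.132, 0.0264 and 0.0528. Only the comparison added after seeing the data stayed below 0.05. The median slope on W was -0.36 when DMSO replicate 1 was left out. It was -0.07 when GSK-J4 replicate 2 was left out, and reversed to 0.024 when GSK-J4 replicate 3 was left out. It stayed negative under the other alternatives. The cause of these differences was not tested. Members of a few CPM, such as CCBE1 with 0 counts in GSK-J4 replicate 2, rest on few counts.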
